A study of Homo sapiens with 16 samples.

Results

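The messenger RNAs of 10 genes of the BCL2 family were followed in human MDA-MB-231 cells with and without tristetraprolin (TTP). The 10 were taken by gene symbol from the 14857 genes listed in the deposited table, and each symbol matched 1 row. They are the BH3-only genes PMAIP1 (NOXA), BBC3 (PUMA), BCL2L11 (BIM), BID, BAD and BIK, the effectors BAX and BAK1, and the pro-survival genes BCL2L1 (BCL-XL) and MCL1.

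MDA-MB-231 is a triple-negative breast cancer line, and every culture carried the tet-off system, in which doxycycline keeps the introduced gene silent. Clones EV_A and EV_B held the empty vector, and clones TTP_E11 and TTP_H3 held a plasmid for TTP, the RNA-binding protein encoded by ZFP36. All lines were grown with G418 sulfate and hygromycin B. Doxycycline at 2 µg/mL is stated for the TTP lines alone, and a washout of drugs for 24 h or longer preceded experiments. Each group is 1 stable clone with 4 libraries, stated to be biological replicates, so the p-values reflect only how replicate cultures of a clone vary. TTP, the clone and the history of doxycycline cannot be told apart for any single clone pair, and with 2 clones per arm TTP and doxycycline history go together.

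BCL2 family proteins decide whether the outer mitochondrial membrane is opened during apoptosis. BH3-only proteins sense stress and either bind the pro-survival proteins or activate the effectors BAX and BAK, which form the pores that release cytochrome c. NOXA binds mainly MCL1, whereas PUMA and BIM bind all the main pro-survival proteins. TTP binds AU-rich elements in 3′ UTRs and recruits the machinery that shortens poly(A) tails and degrades the mRNA.

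Because TTP acts through AU-rich elements, the members were searched for the motif TATTTAT, in DNA letters, on the sense strand of the longest 3′ UTR in GENCODE 29 on GRCh38. The motif was found in 4 of the 10 members, against 35.4% of the 12564 listed genes with an annotated 3′ UTR. PMAIP1 held 3 copies in a UTR of 1553 bases, MCL1 held 3 in 2824 bases, BCL2L11 held 2 in 4480 bases and BCL2L1 held 1 in 1497 bases. The windows of 30 bases below show 1 or 2 sites of each of these 4 genes, 5′ to 3′ on the strand of the mRNA, with the motif in capitals.
PMAIP1, chr18:59903961-59903990, plus strand: aggaataatttTATTTATtttgcctattta
PMAIP1, chr18:59904209-59904238, plus strand: ttaccatctggTATTTATggtctaatttgt
MCL1, chr1:150575806-150575835, minus strand: ccctctacagaTATTTATatcaattcctac
MCL1, chr1:150575163-150575192, minus strand: cataagccgctTATTTATatcatgtatctc
BCL2L11, chr2:111167084-111167113, plus strand: gaaatattgtaTATTTATtttctgcttatt
BCL2L1, chr20:31664681-31664710, minus strand: aagcgtgtctgTATTTATgtgtgaggagct

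The first PMAIP1 window also holds the longer motif TTATTTATT, which overlaps TATTTAT and occurs once in this UTR. No other member held TTATTTATT. Of the 1852 listed genes whose longest 3′ UTR is within 20% of the length of that of PMAIP1, 35% hold TATTTAT and 2.81% hold it as many times. For MCL1, 8.62% of 1775 UTRs of like length hold as many copies. For BCL2L11 the corresponding share is 37.6% of 1190, and for BCL2L1 it is 33.2% of 1843. As many copies as in PMAIP1 or MCL1 were thus rarer among UTRs of like length than as many as in BCL2L11 or BCL2L1. The longest 3′ UTRs of BBC3, BID, BAD, BIK, BAX and BAK1 did not contain these 7 letters. A match is a description of the sequence, and binding by TTP was not measured here.

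Samples were grouped by the library names in the labels, because the titles of 7 of the 8 libraries named for TTP call them EV. ZFP36 mRNA stood at 258.6 ± 26.3 and 222.1 ± 8.8 normalized counts in EV_A and EV_B, and at 10480 ± 337 and 14370 ± 811 in TTP_E11 and TTP_H3 (SD, n = 4), so its level follows the library names. Normalized counts are reads per gene after division by the size factor of the library. The libraries held 14380767 to 22066098 reads on the listed genes. Of 6 markers of mesenchymal basal-like breast cells, VIM, CD44, EGFR, AXL and CAV1 had clone means between 6063 and 38240 normalized counts, and SPARC had 28.5 to 35.1. Of 12 markers of immune, endothelial, embryonic kidney and fibroblast cells, 6 are listed in the table. Their summed level was 520 to 817 normalized counts in the EV libraries and 766 to 1050 in the TTP libraries. Between the arms GATA2 and PDGFRB were higher by 0.85 and 0.38 on the log2 scale and KDR was 2.89-fold higher. CD14 (-0.41), CD68 (0.12) and COL1A1 (0.25) did not pass. The call of PDGFRB rested on a low level in EV_B, which differed from EV_A by -0.80 (adjusted p = 0.00409). Neither TTP clone passed against EV_A for PDGFRB, at -0.08 for TTP_E11 and 0.05 for TTP_H3. The part of these 6 markers in the results below was not tested. EV_B replicate 4 and TTP_H3 replicate 3 stood apart from the other libraries of their clones. The SD of their log2 differences from the other 3 libraries, over 11878 genes, was 0.19 and 0.231, against 0.112 to 0.158 for the remaining libraries.

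The first question was which members differed between the arms. In the contrast of both TTP clones with both EV clones, 3 members were higher (BBC3, BAD and BAK1) where 35.4% of all listed genes were called higher, and 4 were lower (PMAIP1, BCL2L1, BID and MCL1) where 34.6% were called lower. BCL2L11, BIK and BAX did not pass. These calls come from limma on log2(normalized count + 1), with Benjamini-Hochberg adjustment over all listed genes and a threshold of 0.05. The median log2 change was 0.01 over the 10 members and 0.00 over all genes, and the median absolute change was 0.17 and 0.26. The family as a whole therefore did not move in 1 direction, and the differences lay between its members. In bulk RNA, fewer cells with a transcript and less transcript per cell cannot be told apart.

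A stricter rule asked for a difference of the same sign past the threshold whichever TTP clone was set against whichever EV clone, which makes 4 contrasts. By this rule 2 members were higher, BBC3 and BAD, beside 19% of all genes, and 2 were lower, PMAIP1 and BCL2L1, beside 19.5% of all genes. For PMAIP1 and BBC3 the 8 TTP libraries did not overlap the 8 EV libraries, which was so for 31.8% of all genes. When the reads were summed per clone, so that the 2 clones of an arm were the replicates, edgeR kept PMAIP1 and BBC3 past the threshold. BAD (adjusted p = 0.0669), BCL2L1 (0.111), BAK1 (0.173), BID (0.18) and MCL1 (0.488) then missed it. That fit called 4375 of all 14857 genes, so passing it did not set PMAIP1 and BBC3 apart from many other genes.

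**Figure D1:**
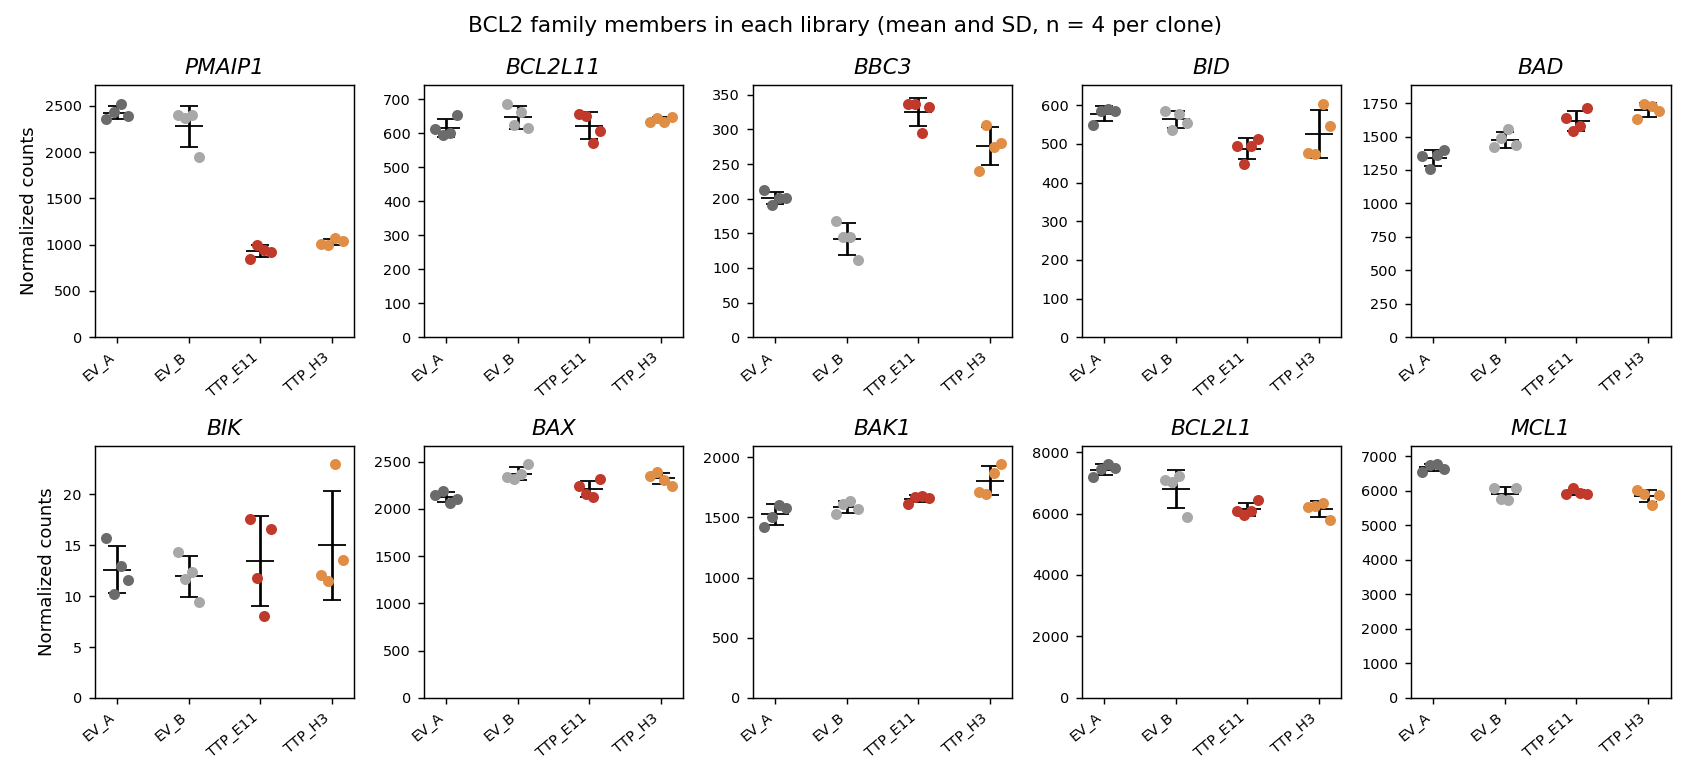
Normalized counts (vertical axes, from 0) of the 10 members in each of the 16 libraries, grouped by clone, with the mean and SD over 4 libraries. PMAIP1 separates the arms downwards and BBC3 upwards, while for every other member the libraries of the arms overlap.

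PMAIP1 (ENSG00000141682, chr18:59899948-59904306, plus strand) encodes NOXA, the BH3-only partner of MCL1. Its normalized counts were 2357, 2437, 2523 and 2388 in EV_A and 2400, 2364, 2398 and 1949 in EV_B. They were 843.8, 1001, 943.7 and 918 in TTP_E11 and 1011, 992, 1074 and 1041 in TTP_H3. Every EV library lay above every TTP library, with 1949 as the lowest EV value and 1074 as the highest TTP value. PMAIP1 fell to 0.416 of its EV level, a log2 change of -1.26 (SE 0.0398, 95% interval -1.35 to -1.18, adjusted p = 2.69e-20). The 4 contrasts of single clones ranged from -1.39 to -1.14. Of all listed genes, 0.862% had a lower log2 change. The authors' deposited table gives PMAIP1 a log2 change of -1.26 with an adjusted p of 2.86e-116. Without the 2 libraries that stood apart the change was -1.31. Neither clone pair within an arm passed the threshold for PMAIP1, at -0.10 for EV_B against EV_A (adjusted p = 0.194) and 0.15 for TTP_H3 against TTP_E11 (adjusted p = 0.0765).

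BBC3 (ENSG00000105327, chr19:47220822-47232766, minus strand) encodes PUMA, a BH3-only protein that binds all the main pro-survival proteins. Its normalized counts were 212.3, 191.2, 200.9 and 200.6 in EV_A and 167.3, 144, 144.6 and 111.9 in EV_B. They were 337.3, 336.4, 294.9 and 331.8 in TTP_E11 and 240.2, 307, 274.3 and 280.7 in TTP_H3. By clone mean EV_B was lowest, then EV_A, TTP_H3 and TTP_E11. The libraries of the 2 TTP clones overlapped, with 307 in TTP_H3 above 294.9 in TTP_E11. BBC3 rose 1.75-fold, by 0.82 on the log2 scale (SE 0.0687, 95% interval 0.68 to 0.96, adjusted p = 2e-12), opposite in direction to PMAIP1. The clone contrasts of BBC3 depended on the EV clone used as reference. They were 0.69 and 0.45 against EV_A, for TTP_E11 and TTP_H3, and 1.20 and 0.96 against EV_B. EV_B itself was lower than EV_A by a log2 difference of -0.51 (adjusted p = 8.74e-05), which is larger in size than the difference of 90.3% of all genes between these 2 clones. The clone difference without the TTP plasmid was thus more than the smallest difference between a TTP and an EV clone.

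BAD (ENSG00000002330, chr11:64269830-64284704, minus strand) encodes a BH3-only protein that binds BCL-XL and is held inactive by 14-3-3 proteins when phosphorylated. Its normalized counts were 1352, 1259, 1360 and 1400 in EV_A and 1419, 1488, 1557 and 1436 in EV_B. They were 1639, 1541, 1577 and 1712 in TTP_E11 and 1630, 1746, 1726 and 1688 in TTP_H3. The arms overlapped at a single pair of libraries, with 1557 in EV_B above 1541 in TTP_E11. BAD rose 1.18-fold, by 0.24 (log2, SE 0.0307, 95% interval 0.17 to 0.30, adjusted p = 3.62e-08). EV_B was higher than EV_A by 0.14 (adjusted p = 0.0135), close to the 0.13 between TTP_E11 and EV_B, the smallest of the 4 clone contrasts. That contrast missed the threshold without TTP_E11 replicate 4 (0.10, adjusted p = 0.0513). Of the exon bases of BAD, 404 are shared with GPR137 on the opposite strand, and the sources used here do not state whether counting used strand. GPR137 changed by -0.02 (log2, adjusted p = 0.7194).

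BID (ENSG00000015475, chr22:17734138-17774770, minus strand) encodes the BH3-only protein that caspase-8 cleaves, linking death receptors to mitochondria. It stood at 577.7 ± 19.4 and 563.9 ± 22.4 normalized counts in EV_A and EV_B and at 487.7 ± 27.2 and 525.6 ± 62.2 in TTP_E11 and TTP_H3 (SD, n = 4). BID fell by 0.18 (log2, 95% interval -0.27 to -0.08, adjusted p = 0.00123). TTP_E11 was below both EV clones, and TTP_H3 did not pass against EV_A (adjusted p = 0.0587) or EV_B (adjusted p = 0.162). In TTP_H3 the values were 476.4, 475.4, 604.5 and 546.1, with the highest in replicate 3, a library that stood apart. Without that library TTP_H3 passed against EV_A (-0.21, adjusted p = 0.00322) and EV_B (-0.18, adjusted p = 0.0143).

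BCL2L11 (ENSG00000153094, chr2:111119378-111168447, plus strand) encodes BIM, a BH3-only protein that can activate BAX and BAK directly. Its counts lay between 571.9 and 686.6 in all 16 libraries, and the clones overlapped. The log2 change was -0.00 (adjusted p = 0.985), with a 95% interval from -0.08 to 0.08. This interval leaves out changes of the size seen for PMAIP1, BBC3, BAD and BCL2L1. Of its exon bases, 727 are shared with MIR4435-2HG on the opposite strand. BIK (ENSG00000100290, chr22:43110748-43129712, plus strand), a BH3-only gene of the endoplasmic reticulum, was near the lower limit of the table. It had 9 to 23 reads per library, and its log2 change of 0.16 had a 95% interval from -0.28 to 0.60 (adjusted p = 0.517). At this depth a change of BIK as small as that of BAD was not detectable.

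BAX (ENSG00000087088, chr19:48954815-48961798, plus strand) encodes an effector that moves from the cytosol to mitochondria and forms pores. Its normalized counts were 2143, 2188, 2065 and 2104 in EV_A and 2334, 2322, 2373 and 2472 in EV_B. They were 2242, 2158, 2129 and 2317 in TTP_E11 and 2344, 2391, 2310 and 2248 in TTP_H3. Both TTP clones lay between the EV clones, and the contrast of the arms was 0.01 (log2, 95% interval -0.04 to 0.07, adjusted p = 0.679). The difference for BAX lay within the EV arm, where EV_B was higher than EV_A by 0.16 (adjusted p = 0.000813). As a result TTP_H3 passed as higher against EV_A (0.13, adjusted p = 0.00291) and TTP_E11 as lower against EV_B (-0.10, adjusted p = 0.0163). The latter call was lost without EV_B replicate 4 (adjusted p = 0.0571), TTP_E11 replicate 2 (0.0541) or TTP_E11 replicate 3 (0.07).

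BAK1 (ENSG00000030110, chr6:33572547-33580293, minus strand) encodes BAK, the effector that resides on the mitochondrial membrane. It stood at 1525 ± 83.9 and 1587 ± 47 normalized counts in EV_A and EV_B and at 1655 ± 27.8 and 1804 ± 121 in TTP_E11 and TTP_H3 (SD, n = 4). BAK1 rose 1.11-fold, by 0.15 (log2, 95% interval 0.09 to 0.22, adjusted p = 9.36e-05). It did not meet the stricter rule, because TTP_E11 against EV_B was 0.06 (adjusted p = 0.251). Against EV_A, TTP_E11 passed (0.12, adjusted p = 0.022). That call was lost without EV_A replicate 1 (adjusted p = 0.12), EV_A replicate 2 (0.0548) or TTP_E11 replicate 3 (0.0523). BAK1 has 2 processed pseudogenes, BAK1P1 and BAK1P2, with which reads could be shared.

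BCL2L1 (ENSG00000171552, chr20:31664452-31723989, minus strand) encodes BCL-XL, a pro-survival protein that restrains BAX, BAK and several BH3-only proteins. Its normalized counts were 7184, 7444, 7599 and 7477 in EV_A and 7079, 7010, 7224 and 5892 in EV_B. They were 6081, 5944, 6096 and 6435 in TTP_E11 and 6210, 6233, 6357 and 5774 in TTP_H3. Apart from EV_B replicate 4, every EV library lay above every TTP library. BCL2L1 fell to 0.863 of its EV level, a log2 change of -0.21 (SE 0.034, 95% interval -0.28 to -0.14, adjusted p = 9.56e-06). The 4 clone contrasts were -0.27 against EV_A and -0.14 against EV_B for each TTP clone. Both contrasts with EV_B missed the threshold without EV_B replicate 3 (adjusted p = 0.0531 for TTP_E11 and 0.054 for TTP_H3), and that of TTP_H3 also without TTP_H3 replicate 4 (0.0531). Without the 2 libraries that stood apart the arms differed by -0.25. The antisense gene ABALON shares 1424 exon bases with BCL2L1 and changed by -0.72 (log2, adjusted p = 2.109e-08). Its part in the count of BCL2L1 was not tested.

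MCL1 (ENSG00000143384, chr1:150574551-150579738, minus strand) encodes the short-lived pro-survival protein that NOXA binds. Its normalized counts were 6546, 6739, 6758 and 6635 in EV_A and 6088, 5767, 5732 and 6062 in EV_B. They were 5902, 6066, 5941 and 5910 in TTP_E11 and 6012, 5889, 5590 and 5886 in TTP_H3. EV_A alone stood above the rest, and EV_B overlapped both TTP clones. Between the arms MCL1 fell by 0.09 (log2, 95% interval -0.13 to -0.05, adjusted p = 0.000526). Against EV_B, however, TTP_E11 was at 0.01 (adjusted p = 0.786) and TTP_H3 at -0.02 (adjusted p = 0.668), whereas EV_B differed from EV_A by -0.17 (adjusted p = 4.08e-05). The call between the arms for MCL1 thus rested on EV_A. MCL1 and PMAIP1 each hold 3 copies of TATTTAT, and their log2 changes were -0.09 and -1.26.

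**Figure D2:**
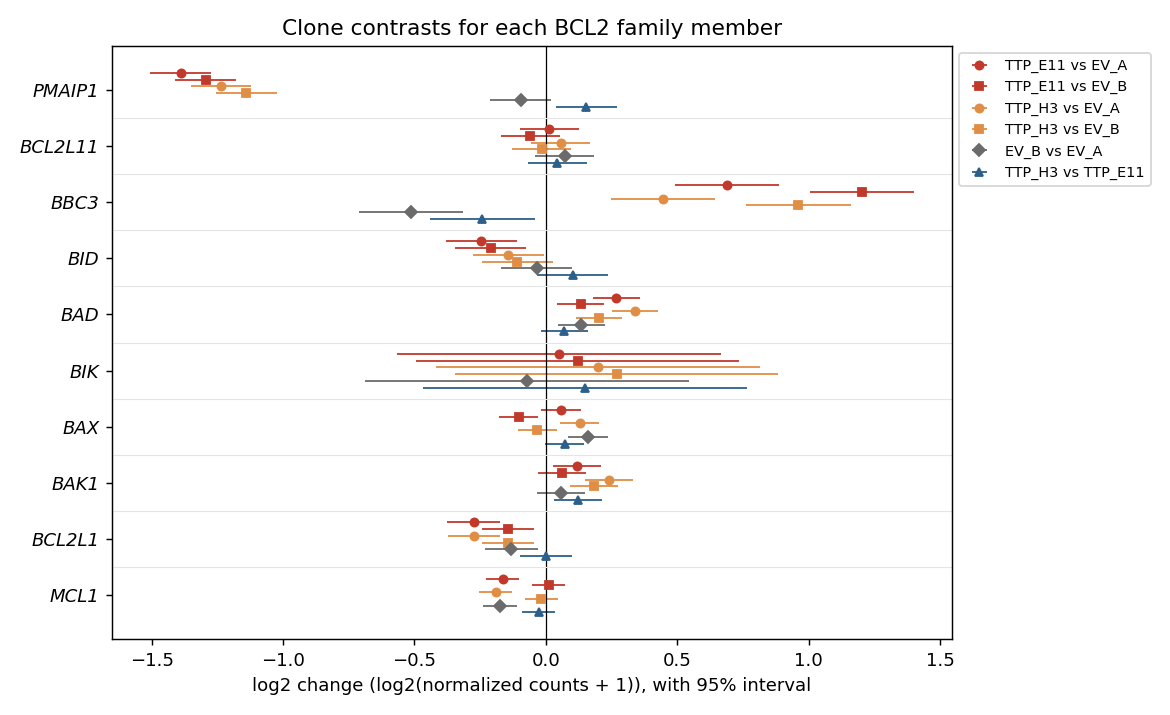
Log2 differences with 95% intervals for each member, for the 4 contrasts of a TTP clone with an EV clone and the contrasts EV_B against EV_A and TTP_H3 against TTP_E11. All 4 TTP contrasts of PMAIP1 lie between -1.39 and -1.14, those of BBC3 between 0.45 and 1.20, and the EV clone difference of BBC3 is -0.51.

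The EV clones were then compared with each other as a measure of the difference between clones without the TTP plasmid. Of the 10 members, 5 passed between EV_B and EV_A, beside 36.8% of all genes. BAD and BAX were higher in EV_B, and BBC3, BCL2L1 and MCL1 were lower. The BCL2L1 difference of -0.13 (adjusted p = 0.0362) was -0.06 (adjusted p = 0.162) without EV_B replicate 4, and it also missed the threshold without EV_A replicates 2, 3 or 4 or TTP_H3 replicates 2 or 3. That of BAD missed it without EV_A replicate 2 (adjusted p = 0.0794) or EV_B replicate 3 (0.0676).

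Between the TTP clones, 0 of the 10 members passed with limma, beside 11.7% of all genes. The unadjusted p was under 0.05 for 3 members, PMAIP1, BBC3 and BAK1. The share of all genes under this unadjusted p is not given here, so these 3 cannot be set against it. With adjustment, edgeR and DESeq2 on the recovered reads also called 0 members. Without EV_B replicate 4, PMAIP1 (0.15, adjusted p = 0.0144) and BBC3 (-0.24, adjusted p = 0.0499) passed. Without TTP_E11 replicate 2 PMAIP1 passed (adjusted p = 0.0396), and BAK1 passed without TTP_H3 replicate 1 (0.0449) or 2 (0.0365). ZFP36 itself was higher in TTP_H3 than in TTP_E11, and PMAIP1 was not lower there. With 1 clone at each ZFP36 level, a relation between the 2 genes was not tested. The deviation of TTP_H3 from TTP_E11 for PMAIP1 had a 95% interval from 0.04 to 0.27.

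Levels of different genes were compared per kilobase of merged exons, with no test. BCL2L1 was highest and MCL1 next in every clone, at 1852 to 2241 and 1337 to 1526 normalized counts per kb. PMAIP1 ranked 3 in the EV clones, at 1086 ± 32.4 and 1019 ± 98.3 per kb (SD, n = 4), and 6 of the 10 in the TTP clones, at 414.6 ± 29.2 and 460.6 ± 16.1. In the TTP clones BAD, BAX and BAK1 stood above it. In EV_B the libraries of PMAIP1 and BAX overlapped, as did those of BAX and BAD in both EV clones. BID, BCL2L11 and BBC3 formed a lower group, between 44.6 and 129.9 per kb, and BIK was last at 12.5 to 15.8. BBC3 was below BCL2L11 in both EV clones, and the libraries of these genes overlapped in TTP_E11 and TTP_H3. Those of BID and BBC3 overlapped in TTP_E11, and those of BAX and BAK1 in TTP_H3. The ranks of MCL1, PMAIP1 and other members depended on the length used. Per longest transcript BBC3 stood above BCL2L11 in both TTP clones without overlap, and per coding length it stood below BCL2L11 in every clone. BAD stood below PMAIP1 per coding length in both TTP clones, with overlapping libraries in TTP_E11. Per longest transcript BAX stood above MCL1 in EV_B, TTP_E11 and TTP_H3, and per coding length PMAIP1 stood above MCL1 in EV_B. Per longest transcript PMAIP1 ranked 4 in EV_A and 5 in EV_B, and per coding length it ranked 2 in EV_B and 5 in both TTP clones.

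**Figure D3:**
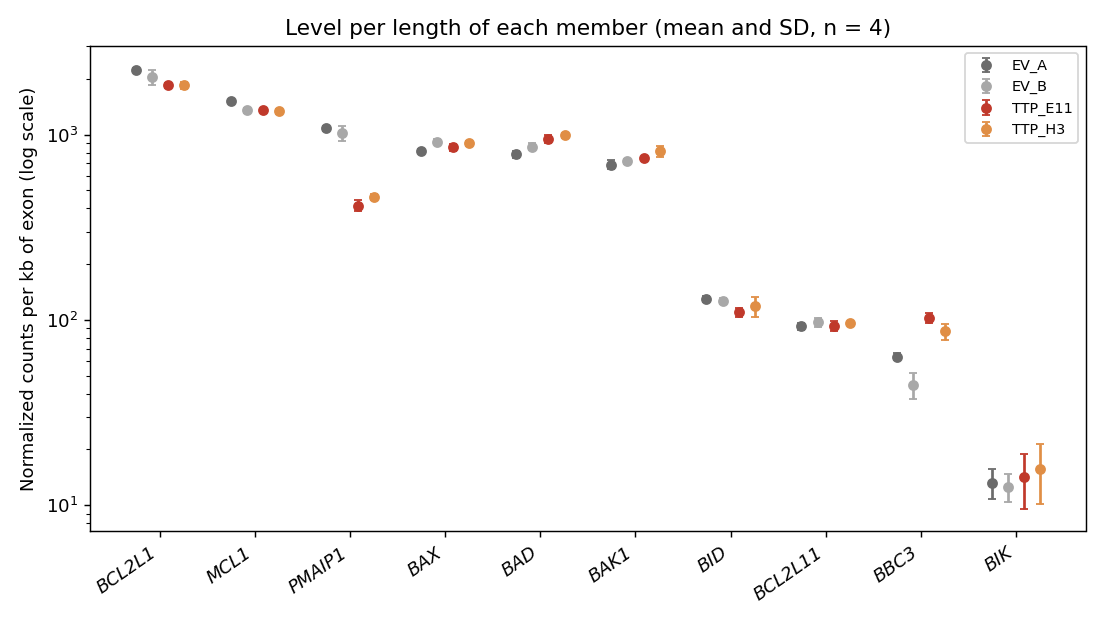
Normalized counts per kb of merged exons (log axis) of the 10 members in the 4 clones, with mean and SD over 4 libraries. PMAIP1 lies at 1019 and 1086 in the EV clones and at 414.6 and 460.6 in the TTP clones, while BCL2L1 and MCL1 are highest in each clone on this length.

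The ratio of NOXA transcript to that of its partner MCL1, per kb, was 0.711 ± 0.0126 in EV_A and 0.755 ± 0.0863 in EV_B (SD, n = 4). It was 0.304 ± 0.0182 in TTP_E11 and 0.345 ± 0.022 in TTP_H3. The lowest EV library was at 0.629 and the highest TTP library at 0.376. The ratio of PMAIP1 to BCL2L1 moved alike, from 0.484 and 0.496 to 0.224 and 0.249. That of BBC3 to PMAIP1 went the other way, from 0.0584 ± 0.0037 and 0.0436 ± 0.00373 to 0.248 ± 0.0262 and 0.188 ± 0.0215. The mix of BH3-only transcripts thus differed between the arms, with less NOXA and more PUMA in the TTP clones. The ratio of BCL2L11 to BCL2L1 was 0.0412 and 0.0475 in the EV clones and 0.0504 and 0.0519 in the TTP clones. These are ratios of transcripts, and the proteins were not measured here.

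The genes whose pattern over the 16 libraries was most like that of PMAIP1 were ADGRE5, CDC42BPA, PLK2, STS and WNT9A, with Pearson r from 0.9905 to 0.9938 on the log2 scale. Their log2 changes between the arms ranged from -1.67 for WNT9A to -0.66 for PLK2. As 571 genes had r over 0.95, and the points share the difference between the arms, these values describe that difference. Among the members, r with PMAIP1 over the same libraries was 0.83 for BCL2L1, 0.72 for BID and 0.56 for MCL1, and -0.83 for BBC3 and -0.84 for BAD.

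The motif counts were also set beside the changes of all genes with a 3′ UTR. Of the 866 genes with at least 3 copies of TATTTAT, 56.5% were called lower and 22.4% higher, with a median log2 change of -0.16. Of the 8121 genes with 0 copies, 29.8% were called lower and 44.6% higher, with a median of 0.07. The UTRs of these classes differed in length, with medians of 4500 and 919 bases, and the part of length was not tested. Within the family, the 4 members with the motif were PMAIP1, BCL2L1 and MCL1, which fell, and BCL2L11, which did not pass. Of the 6 without it, BBC3, BAD and BAK1 rose, BID fell, and BAX and BIK did not pass. The call of MCL1 rested on EV_A. With the reads summed per clone, PMAIP1 and BBC3 alone of the members passed. The other BCL2 family genes measured were mixed as well, with falls and rises among those with 0 copies. BCL2L2 and BNIP3, with 0 copies, fell by 0.96 and 0.94 on the log2 scale. BMF, BCL2L12 and BCL2L13, also with 0 copies, were called higher, but not by the rule of 4 clone contrasts. BMF and BCL2L13 did not pass against EV_A for either TTP clone. BCL2L12 was lower in TTP_E11 than in EV_B (-0.13, adjusted p = 0.0178), and EV_B was above EV_A by 0.31. BOK with 0 copies did not pass. BCL2, with 1 copy, was called higher, and BNIP3L, with 2 copies, was lower.

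Further genes of the pathway were taken from 5 lists, of which 42 genes passed between the arms in all and 13 with the reads summed per clone. Of all 14857 genes, 10405 passed between the arms and 4375 with the reads summed per clone. Beside the list counts below, 35.4% of all genes were called higher and 34.6% lower. By the rule of 4 clone contrasts these shares were 19% and 19.5%. Of 8 other BCL2 family genes measured, 4 were higher, 3 were lower and 1 did not pass, with a median log2 change of 0.08. BCL2L2, which encodes the pro-survival protein BCL-W, stood at 536.1 ± 15.4 and 499 ± 17.3 normalized counts in the EV clones and 274.7 ± 14 and 255.4 ± 16.3 in the TTP clones (SD, n = 4). It fell by 0.96 (log2, adjusted p = 1.29e-18). The readthrough gene BCL2L2-PABPN1 is listed separately, and reads could be split between them. BNIP3, a mitophagy receptor with a BH3-like domain, fell by 0.94 (adjusted p = 3.45e-10), but EV_B was already lower than EV_A by -0.61. Its relative BNIP3L fell by 0.20 between the arms and was -0.40 between the EV clones. BMF, a BH3-only gene, rose by 0.34 (adjusted p = 0.000485), with 67.1 normalized counts in EV_B against 105.9 to 109.1 in the other clones. BCL2 was lowest in EV_A, at 230.9 normalized counts, and at 331.5, 324.8 and 287 in EV_B, TTP_E11 and TTP_H3. Its call as higher (0.14, adjusted p = 0.0261) was lost without EV_A replicate 4, EV_B replicate 3, TTP_E11 replicates 1 or 3 or TTP_H3 replicate 1, with values from 0.12 to 0.13, and the authors' deposited table gives BCL2 an adjusted p of 0.315. BCL2L2 and BNIP3 were the 2 genes of this list that passed with 1 sign in each of the clone contrasts.

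Downstream of the pores, 4 of 14 genes of mitochondrial release and the apoptosome were higher, 7 were lower and 3 did not pass, with a median of -0.07. By the rule of 4 clone contrasts 1 was higher and 6 were lower, beside 19% and 19.5% of all genes. Without EV_A replicate 1 the genes called higher were 2 instead of 4, as DIABLO (adjusted p = 0.0526) and VDAC3 (0.0579) missed the threshold. CYCS, which encodes cytochrome c, fell from 3789 ± 181 and 4615 ± 170 to 2418 ± 35.8 and 2520 ± 43.6 normalized counts (SD, n = 4; log2 -0.76, adjusted p = 1.61e-22). VDAC2, a channel of the outer mitochondrial membrane that binds BAK, fell by 0.65 (adjusted p = 3.22e-20). The protease gene HTRA2 rose by 0.27. CYCS and VDAC2 have processed pseudogenes, so part of their reads could be assigned elsewhere. The same holds for other genes named here, among them BNIP3 and YWHAZ, whose copies BNIP3P11, BNIP3P17 and YWHAZP3 are listed separately.

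Among 8 genes for ubiquitin regulators of MCL1 or NOXA protein, 2 were higher, 5 were lower and 1 did not pass, with a median of -0.17. UBE2F and CUL5, whose products act in the degradation of NOXA, fell by 0.40 (adjusted p = 7.41e-09) and 0.36 (adjusted p = 9.24e-12). For UBE2F, EV_B was higher than EV_A by 0.34 (adjusted p = 0.000143). This was more in size than its contrasts with EV_A, -0.27 for TTP_E11 and -0.18 for TTP_H3. HUWE1, a ubiquitin ligase for MCL1, fell by 0.22, and BTRC, the substrate receptor also known as beta-TrCP, rose by 0.37.

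Of 9 transcription factors known to induce BH3-only genes, 4 were higher, 4 were lower and 1 did not pass, with a median of 0.03. FOXO1, a factor of the forkhead family, rose by 0.69 (log2, adjusted p = 8.75e-10), and E2F1 fell by 0.62 (adjusted p = 1.1e-19). TP63 was called lower (-0.66, adjusted p = 0.0173) at 5.24 to 18.3 normalized counts, and it missed the threshold without EV_B replicate 1 (-0.53, adjusted p = 0.0578).

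Of 10 genes for partners and activators of BH3-only proteins, 2 were higher, 7 were lower and 1 did not pass, with a median of -0.24. The call of CASP8 as higher (0.10, adjusted p = 0.0418) was lost without EV_A replicates 1 or 4, EV_B replicates 1 or 3, TTP_E11 replicates 2 or 4 or TTP_H3 replicates 2 or 4, at adjusted p from 0.0511 to 0.129. By the rule of 4 clone contrasts 6 of the 10 were lower and 0 higher, beside 19.5% and 19% of all genes. The 14-3-3 genes YWHAZ, YWHAH, YWHAG and YWHAQ, whose proteins bind phosphorylated BAD, fell by 0.66, 0.46, 0.39 and 0.35 on the log2 scale. YWHAZ went from 24450 ± 571 and 27960 ± 199 to 16610 ± 365 and 16430 ± 456 normalized counts (SD, n = 4; adjusted p = 5.62e-24). BAD rose while these 4 fell, but the 14-3-3 genes did not all fall so. SFN, also a 14-3-3 gene, fell by 0.26 (adjusted p = 1.29e-07). YWHAB rose by 0.09 (adjusted p = 0.000104), but it did not pass against EV_B for TTP_E11 (0.03, adjusted p = 0.296) or TTP_H3 (0.03, adjusted p = 0.394). EV_B was above EV_A for YWHAB by 0.12 (adjusted p = 0.000751). YWHAE fell by 0.08 (adjusted p = 0.000778), a call lost under upper-quartile scaling (adjusted p = 0.0791), and it did not pass against EV_A for either TTP clone. Within the EV arm, 6 of the 10 were higher in EV_B than in EV_A and 0 were lower. Of all 14857 genes, 3003 were higher in EV_B and 2465 were lower.

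**Figure D4:**
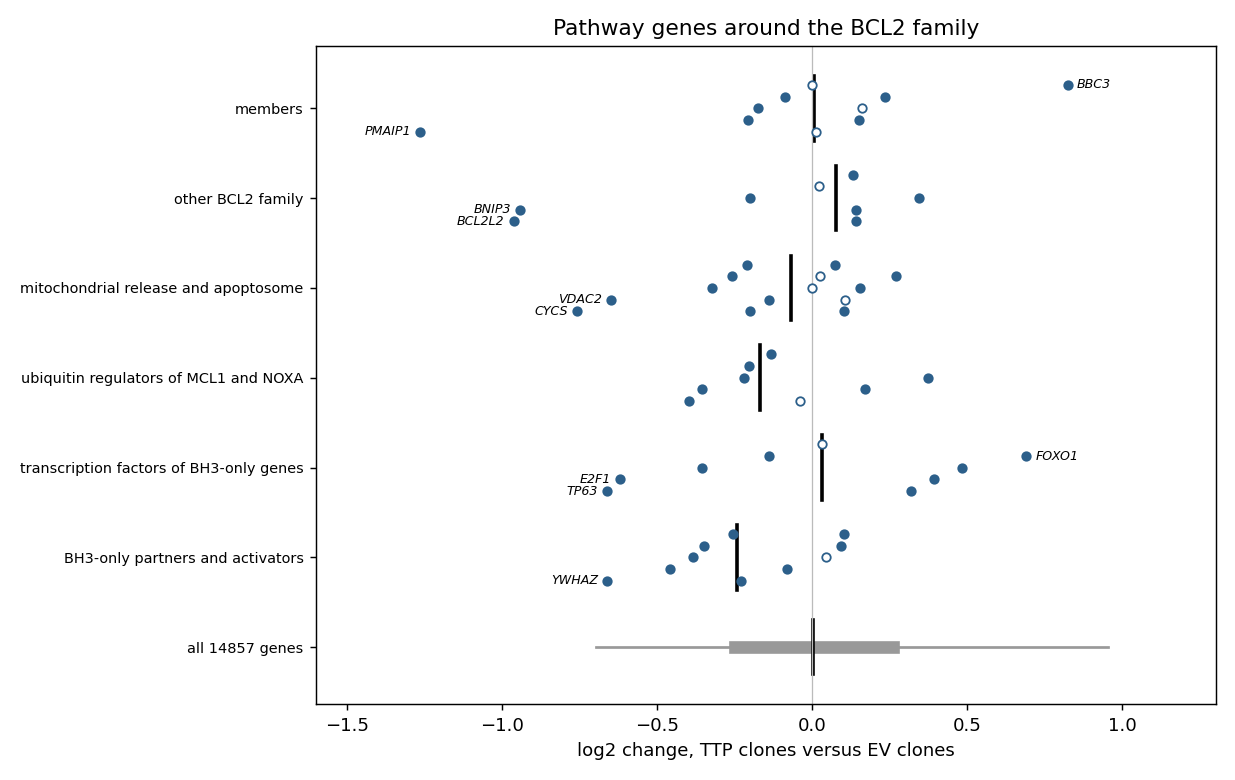
Log2 change between the arms of each measured gene of the 10 members and the 5 pathway lists, with filled points past the adjusted threshold, open points not past it and a black bar at each list's median. The grey bars show all 14857 genes, from the 5% to the 95% quantile (-0.70 to 0.95) and from the 25% to the 75% quantile (-0.25 to 0.26); PMAIP1 lies below and BBC3 within the wider range.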

How the data were processed

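RNA of 16 cultures of MDA-MB-231 tet-off clones was sequenced, 4 libraries per clone. Named in the submitters' processing notes are STAR 2.5.2b, Subread 1.5.2 with featureCounts, Trimmomatic 0.36, DESeq2 and the build GRCh38. Annotation and strand setting were not given in the sources used here. Per gene and library the authors deposited a normalized signal, in which the values are whole reads divided by a size factor (100% within 0.001). The check is weaker in TTP_H3 replicates 1 and 3, where 1 read was worth 1.009 and 0.9975. Per the file headers, the authors' log2 fold change and p-value columns are also deposited. The smallest mean listed was 9.68, and rarer transcripts are not analysed here.

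All 16 libraries entered 1 fit with limma 3.58.1 (robust trend, R 4.3.3) on log2(value + 1) with 4 clone groups, and no filter. This understates changes of low genes. Adjustment was by Benjamini-Hochberg over 14857 genes. The fit was tested on simulated counts, with planted changes alike in both TTP clones and otherwise the same mean in every clone. That simulation held no differences between clones of an arm, so it cannot show how they affect the calls. The fit was repeated with DESeq2 1.42.0 and edgeR 4.0.16 on recovered reads, with pseudocounts of 0.1 and 5, a mean of at least 50, other scalings, a replicate block, 2 groups in place of 4 clones, reads summed per clone, and leaving out libraries.

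The members and lists were chosen with earlier results of these data known. Named genes were all members, from each list at most 4 passing genes with the largest absolute log2 change, the 5 genes most like PMAIP1 by Pearson r, and the ZFP36 family. BCL2, BOK, BCL2L12, BCL2L13, CASP8, YWHAB, YWHAE, SFN, DIABLO, VDAC3, ABALON, GPR137 and the markers given with values were named after their values were seen. ZFP36L1 and ZFP36L2, relatives of TTP, fell by 0.60 and 1.29 on the log2 scale. Positions and 3′ UTRs come from GENCODE 29, which holds 14820 of the listed genes. BCL2A1, BCL2L10, HRK, BCL2L14, BCL2L15 and TRIM17 are not analysed here. Some genes that the naming rule selects are not reported here.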

Additional observations from a re-analysis of the deposited data

Results flagged for a closer look

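Within the clones, 4 values of members lay far from the other 3 libraries of their group, by Dixon's gap test at 95% in 40 groups of 4 libraries. Chance flags about 1 in 20 groups. Both EV_B values are in replicate 4, which also stood apart over all genes. PMAIP1 was at 1949 normalized counts in EV_B replicate 4, against 2364 to 2400 in the other libraries of that clone. BCL2L1 was at 5892 in the same library, against 7010 to 7224. BBC3 was at 294.9 in TTP_E11 replicate 3, against 331.8 to 337.3. BID was at 548.8 in EV_A replicate 1, against 585.7 to 590.6. The value of PMAIP1 remained above every TTP library, while that of BCL2L1 fell within their range.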

How the results depend on the processing

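No call of a member between the arms changed sign. Over 27 alternatives PMAIP1 ranged from -1.31 to -1.22 (largest adjusted p = 0.00178) and BBC3 from 0.77 to 0.87 (largest adjusted p = 0.0242). With reads summed per clone, edgeR called 2 members in place of 7 (1 higher and 1 lower), 13 list genes in place of 42, and 4375 in place of 10405 of all genes. The other alternatives called all 7. Between the EV clones, leaving out 1 library gave 3 to 5 members, with 3 without EV_A replicate 2. Between the TTP clones it gave 0 to 2, and leaving out both libraries that stood apart, chosen after seeing the data, gave 2 (PMAIP1, adjusted p = 0.0186, and BBC3, adjusted p = 0.0477). The concordant members were 3 to 5, and under upper-quartile scaling BAK1 joined and BCL2L1 (0.0803 to 0.0984 against EV_B) left. PMAIP1 ranked 4 per longest transcript in EV_A, in place of 3, 5 in EV_B, and 2 per coding length in EV_B; it ranked 5 in TTP_E11 and 5 in TTP_H3 per coding length, in place of 6. Replicate numbers share only a name. The 24 same-numbered pairs had deviations correlated from -0.059 to 0.061, and 2 of 16 libraries correlated best with their own number. With the replicate block, 1 member passed between the TTP clones (BAK1, adjusted p = 0.0475), and the 7 calls between the arms stood. Depth limits BIK, and the filter on the mean removed it. With 2 clones per arm and 1 cell line, differences between clones and effects of TTP are separated only weakly.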
